A study of Mus musculus with 8 samples.

Results

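Messenger RNAs of 89 nuclear genes for the respiratory chain and the ATP synthase were followed after smgGDS knockdown in TCMK-1, a mouse kidney tubule epithelial cell line, under cisplatin. The genes were chosen by symbol, among 21879 genes listed, from the families Nduf, Sdha to Sdhd, Uqcr, Cox4 to Cox8 and Atp5. Of the 89, 83 had enough counts to be tested. These comprised 36 complex I subunits, 7 complex I assembly factors (Ndufaf), 4 subunits of complex II, 8 of complex III, 11 of complex IV, 15 of the ATP synthase (complex V), and 2 genes, Atp5s and Atp5sl, that share the Atp5 name but are not subunits. The symbol pattern does not reach Cox4i1, Cyc1 or cytochrome c, which were listed apart.

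The knockdown group held 4 libraries of cells with an shRNA against smgGDS, a protein encoded by Rap1gds1 that acts on several small GTPases, and the control group held 4 libraries of cells with a control shRNA. Cisplatin, a platinum compound used against cancer and toxic to kidney tubules, had been given to both groups at 20 µM. The stated purpose was to look for mechanisms of cisplatin-induced kidney injury. No library without the drug was analysed here, so every difference below is one between knockdown and control in drug-treated cells. The sources do not say whether the 4 libraries of a group were separate cultures, nor whether each shRNA line was a single clone, so the p-values measure the spread between these libraries, which may be technical.

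The respiratory chain of the inner mitochondrial membrane passes electrons from NADH (complex I) and succinate (complex II) through ubiquinone to complex III, cytochrome c and complex IV, where oxygen is reduced. Complexes I, III and IV pump protons, and the ATP synthase uses the gradient to make ATP. Most subunits are encoded in the nucleus and imported, and all complexes but complex II also hold subunits encoded by mitochondrial DNA, which were not analysed here. Kidney tubule cells in the body are rich in mitochondria and depend on this pathway for solute transport.

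Total expected counts were 12746051 to 14280962 per knockdown library and 11560977 to 16059158 per control library. Rap1gds1 measured 2.71, 2.36, 2.64 and 2.80 CPM in knockdown replicates 1 to 4 and 17.0, 15.6, 16.8 and 15.5 CPM in control replicates 1 to 4 (CPM, counts scaled to a common library size with TMM factors). It fell to 16.2% of its control level, a log2 change of -2.62 (SE 0.13, edgeR adjusted p = 2.72e-19). On the leading principal component of log2 CPM, carrying 29.2% of the variance, knockdown replicate 4 lay at -20.9, outside the -9.58 to -8.86 of the other knockdown libraries, while the controls lay at 8.86 to 16.5. Of 12 kidney tubule markers 3 had enough counts to be tested, and Hnf4a and Umod had 0 counts in every library. The tubule label could thus be checked only in part. The 5 general epithelial markers summed to 14.2 to 16.9 CPM in knockdown libraries and 15.7 to 17.8 CPM in controls. The 5 fibroblast and pericyte markers summed to 327 to 378 CPM in knockdown libraries and 280.2 to 305 CPM in controls, mostly Col1a1. What these levels mean for the label was not tested.

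Respiratory chain and ATP synthase transcripts differed little between knockdown and control. In edgeR's quasi-likelihood test, 8 of the 83 genes rose and 1 fell at an adjusted p under 0.05, a rule by which 20.2% of all 11576 tested genes were called, 11.1% as higher and 9.15% as lower. The 8 were Ndufs4, Ndufc1, Sdhb, Uqcr10, Cox6c, Cox7a2, Atp5b and Atp5l, and the gene that fell was Atp5g2. The called share of the 83 genes, 10.8%, was below that of all tested genes, although their median of 107 CPM exceeded the 19.0 CPM over all tested genes. In bulk samples, fewer cells of a type and less RNA per cell cannot be told apart.

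Fold changes of the 83 genes lay between -0.14 (Ndufv3) and 0.39 (Ndufs4) on the log2 scale, given throughout as knockdown minus control. Their median was 0.03, and their median absolute change was 0.05, while all tested genes had a median of -0.0033 and a median absolute change of 0.12. In 70 of the 83 the absolute log2 change was below 0.1, and in 2, Ndufs4 and Ndufc1, it reached 0.25 or more. The 95% interval of the log2 change stayed within 0.25 of 0 for 69 of the 83 genes, and for 37.2% of all tested genes. The 2 sets also differed in precision, with a median SE of 0.04 for the 83 genes and 0.09 over all tested genes. Their median levels were 107 CPM and 19.0 CPM. All tested genes were not matched for level, so the part of expression level in the narrower spread was not tested.

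**Figure D1:**
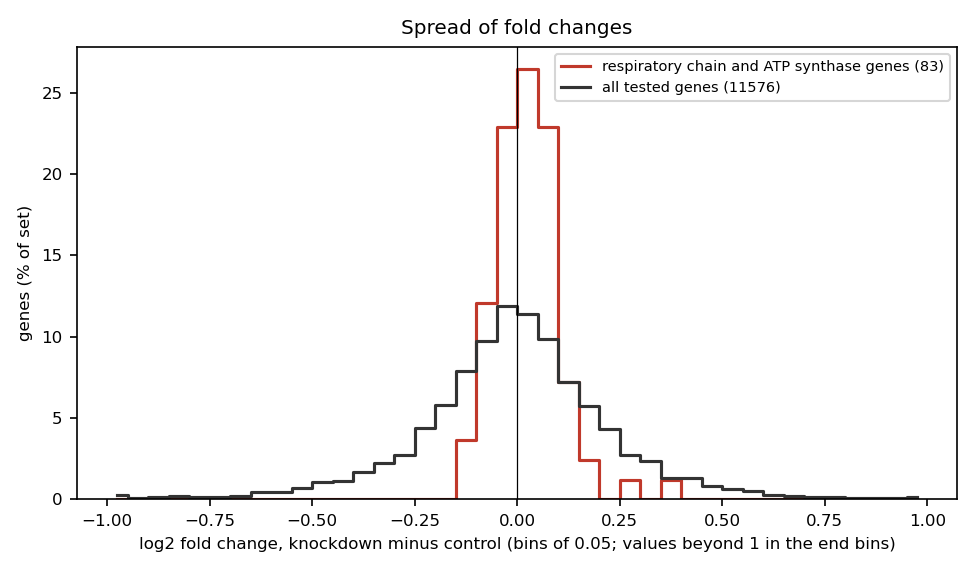
Distribution of log2 fold changes, knockdown minus control (x axis, bins of 0.05), as percent of each gene set (y axis), for the 83 respiratory chain and ATP synthase genes in red and all 11576 tested genes in black. The red curve is narrower, with 70 of 83 genes between -0.1 and 0.1. The sets were not matched for expression level (median 107 CPM in red, 19.0 CPM in black).

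Without knockdown replicate 4, 6 of the 83 genes were called higher and 1 lower, against 1033 higher and 802 lower among all tested genes. Without control replicate 1 the 83 genes also gave 6 higher and 1 lower, against 1046 and 814. How the small changes split by direction depended on how libraries were scaled. Under scaling by library total, 2 of the 83 genes were called higher and 6 lower, against 766 higher and 1951 lower among all tested genes, and the median of all tested genes shifted to -0.06. With limma on the authors' FPKM values the 83 genes gave 3 higher and 6 lower, against 592 higher and 1481 lower among all tested genes. With a correction for transcript length they gave 5 higher and 5 lower, against 1272 higher and 1103 lower. Short transcripts were common among these genes, with 54 of 83 under 1000 bases and a median effective length of 739 bases, against 2792 bases over all tested genes. The 729 other tested genes under 1000 bases had a median log2 change of 0.03, and the part of length in these results was examined only through that correction. Cox6c and Ndufs4 kept their calls as higher under all 19 alternatives, which included leaving out each library.

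**Figure D2:**
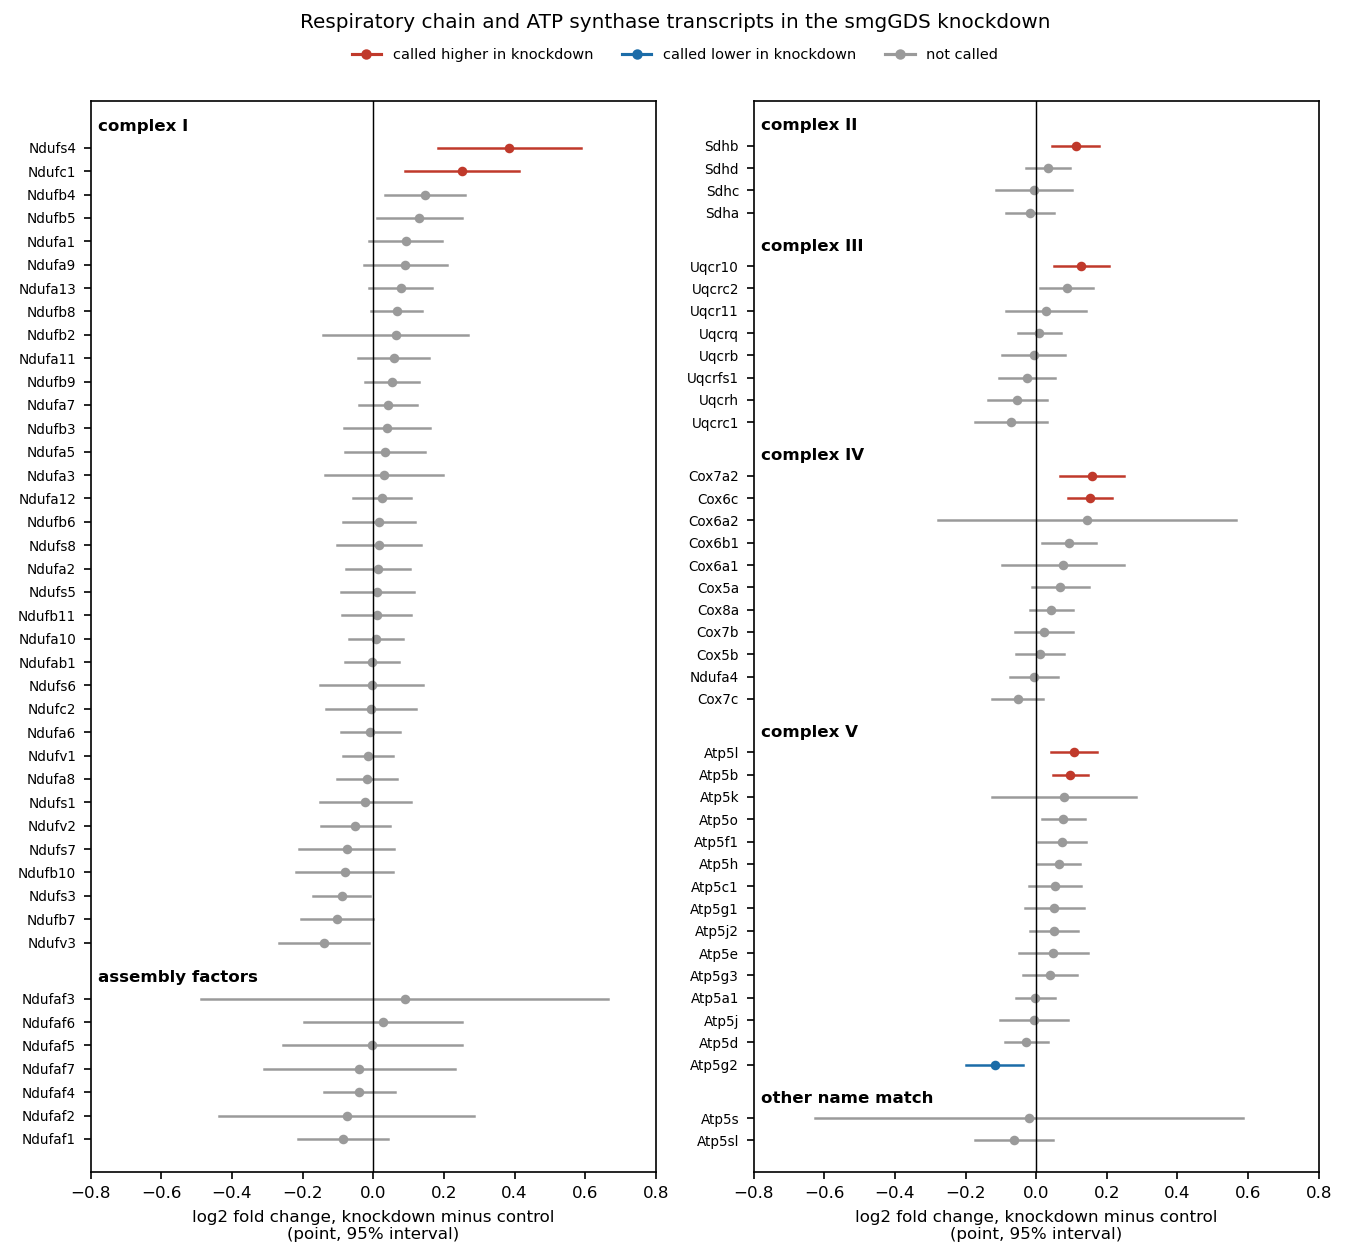
Log2 fold change, knockdown minus control, of tested genes (points) with 95% intervals (lines), by complex, with genes called higher in red, lower in blue and not called in grey. Most intervals are short and include 0, and the widest belong to weakly expressed genes such as Atp5s, Ndufaf3 and Cox6a2.

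Complex I oxidises NADH and passes its electrons to ubiquinone. Of its 36 tested subunits 2 rose in the knockdown, Ndufs4 and Ndufc1, and none fell, with a median log2 change of 0.02 that was -0.04 under library total scaling and -0.02 with the length correction. Under library total scaling and with the length correction 1 complex I subunit was called higher and 3 lower, and on FPKM 2 higher and 3 lower. Ndufs4 and Ndufc1 are accessory subunits. Ndufs4 stabilises the NADH-oxidising module of the complex, and its loss in mice causes a fatal encephalopathy resembling Leigh syndrome. Ndufs4 measured 17.1, 16.4, 13.1 and 18.4 CPM in knockdown replicates 1 to 4, against 11.9, 13.1, 12.5 and 12.1 CPM in control replicates 1 to 4. Knockdown replicate 3 lay within the control range, so the groups overlapped, and the other 3 knockdown libraries were above every control. Ndufs4 (chr13:114287795-114388094, GRCm38.p6) had a log2 change of 0.39 (SE 0.10, adjusted p = 0.0044), the largest among the 83 genes. Per transcript length it was the lowest of the complex I subunits, at 10.4 ± 1.43 FPKM in the knockdown and 8.26 ± 0.416 FPKM in controls (SD, n = 4 each; FPKM, fragments scaled to transcript length and library size by the authors).

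Ndufc1, a small membrane-arm subunit, measured 22.9, 24.3, 24.7 and 28.2 CPM in knockdown replicates 1 to 4 and 20.4, 20.7, 23.0 and 19.8 CPM in control replicates 1 to 4. Knockdown replicate 4 was the highest library, and control replicate 3 lay just above knockdown replicate 1. Its log2 change was 0.25 (SE 0.08, adjusted p = 0.0199). Without knockdown replicate 4, the library that stood apart, Ndufc1 was no longer called, nor was it without control replicate 1 or 4, under library total scaling or with the length correction. The gene spans chr3:51405479-51408955.

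The 7 core subunits, which carry the flavin and iron-sulfur clusters or bind the quinone site and are conserved from bacteria, gave no call in edgeR's test with TMM factors. The lowest log2 change was -0.09 (Ndufs3), and every 95% interval stayed within 0.25 of 0. Ndufv1, the flavin and NADH binding subunit, averaged 195 ± 7.85 CPM in the knockdown and 197 ± 2.48 CPM in controls (SD, n = 4 each). Ndufs1, the largest iron-sulfur subunit, averaged 53.7 ± 7.10 CPM in the knockdown and 54.6 ± 0.906 CPM in controls, its larger SD in the knockdown coming with 64.0 CPM in replicate 1 against 48.1 to 52.3 CPM in the other knockdown libraries. Ndufv2, Ndufs7 and Ndufs8, also iron-sulfur subunits, had log2 changes of -0.05, -0.08 and 0.02.

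Ndufs3 was the only complex I subunit whose groups did not overlap, with 122, 126, 121 and 116 CPM in knockdown replicates 1 to 4 and 128, 127, 136 and 127 CPM in control replicates 1 to 4. All knockdown libraries were lower, but by a narrow margin, and the log2 change of -0.09 (SE 0.04) gave an adjusted p of 0.109. Ndufs3 was called lower under library total scaling, on FPKM and with the length correction. Over all 83 genes 13 had groups that did not overlap, 11 with the knockdown above and 2 below, against 21.1% of all tested genes, 11.5% above and 9.61% below. Among the 29 accessory subunits, 21 log2 changes were positive and 8 negative, between -0.14 for Ndufv3 and 0.39 for Ndufs4. Ndufb4, a membrane-arm subunit whose counts were not whole and may share reads with other loci, had the smallest p of those not called, with 52.5 ± 2.65 CPM in the knockdown and 47.4 ± 2.50 CPM in controls (adjusted p = 0.0596). Ndufa12, the subunit related to the assembly factor Ndufaf2, had the highest level per length in complex I, at 284 ± 13.4 FPKM in the knockdown and 290 ± 14.4 FPKM in controls.

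Assembly factors bind intermediates of complex I and leave before the complex is finished. None of the 7 Ndufaf genes was called, and 5 of 7 log2 changes were negative, with a median of -0.04. Ndufaf1, part of the assembly complex for the membrane arm, had the highest level, at 36.4 ± 4.59 FPKM in the knockdown and 40.0 ± 1.75 FPKM in controls, and a log2 change of -0.09 (95% interval -0.21 to 0.04). Ndufaf4 averaged 77.6 ± 5.21 CPM in the knockdown and 79.8 ± 4.05 CPM in controls, and its partner Ndufaf3 1.62 ± 0.375 CPM in the knockdown and 1.55 ± 0.517 CPM in controls (SD, n = 4 each). Ndufaf5, which in human cells hydroxylates Ndufs7, and Ndufaf7, a methyltransferase, had log2 changes of -0.0034 and -0.04. Ndufaf2, the paralogue of Ndufa12 that serves late assembly, and Ndufaf6, a further assembly factor, had log2 changes of -0.08 and 0.03. Most were weakly expressed and had wide intervals, and 2 of 7 stayed within 0.25 of 0. The intervals of the other 5 reached further, so changes of 0.25 on the log2 scale are not bounded for them at this depth.

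**Figure D3:**
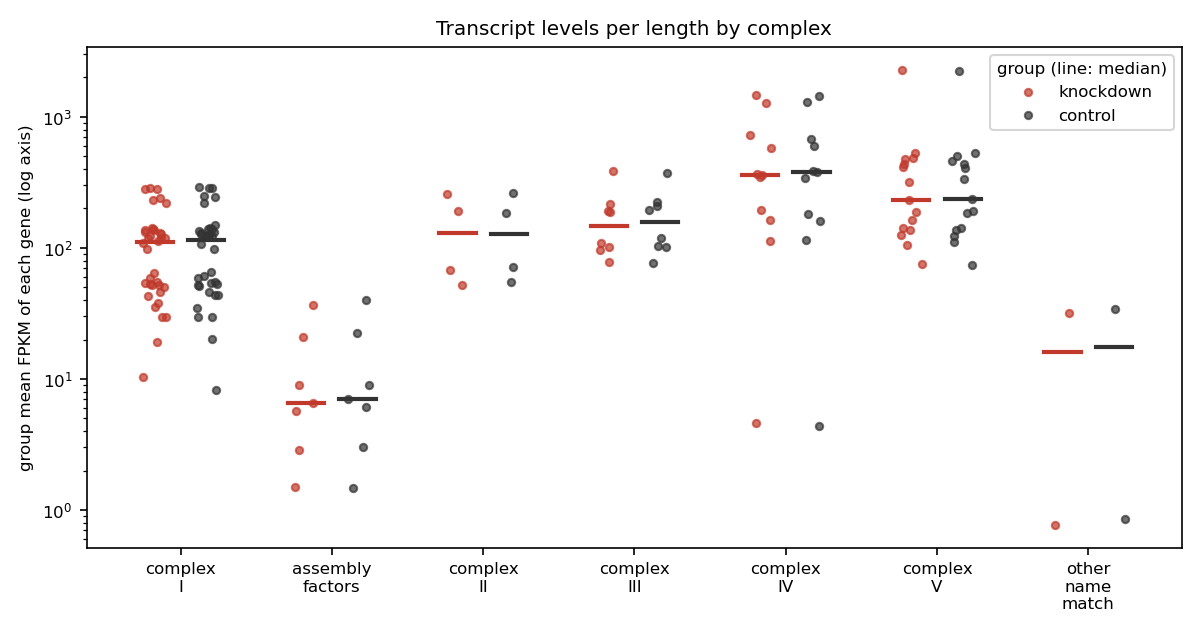
Mean FPKM of each tested gene (points, log axis) in knockdown (red) and control (black) libraries, by complex, with the median of each set as a line. Assembly factors have the lowest median among the pathway classes, with 1.48 to 38.2 FPKM over all 8 libraries, and Atp5b of complex V is highest at 2257 FPKM.

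Complex II is succinate dehydrogenase, shared between the respiratory chain and the tricarboxylic acid cycle. Of its 4 genes 1, Sdhb, rose. Sdhb encodes the iron-sulfur subunit and measured 203, 206, 216 and 209 CPM in knockdown replicates 1 to 4, against 195, 193, 190 and 194 CPM in control replicates 1 to 4. All knockdown libraries were above all controls, by a log2 change of 0.11 (SE 0.03, adjusted p = 0.0135). The gene lies at chr4:140961271-140979198. The call was lost under library total scaling, on FPKM and without knockdown replicate 3, and no complex II gene was then called under library total scaling or on FPKM. Sdha, the flavin subunit that oxidises succinate, averaged 197 ± 4.32 CPM in the knockdown and 200 ± 3.71 CPM in controls, with a log2 change of -0.02 (95% interval -0.08 to 0.05). The membrane anchors Sdhc and Sdhd had log2 changes of -0.0070 and 0.03. Per length, Sdhd was the highest of the 4, with 258 ± 7.92 FPKM in the knockdown and 262 ± 3.08 FPKM in controls, and Sdhc the lowest, with 52.5 ± 2.84 FPKM in the knockdown and 55.0 ± 3.06 FPKM in controls.

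Complex III carries electrons from ubiquinol to cytochrome c. Of its 8 tested genes 1, Uqcr10, rose, and the median log2 change was 0.00051, or -0.06 under library total scaling. Uqcr10, a small single-pass subunit, measured 170, 170, 174 and 188 CPM in knockdown replicates 1 to 4 and 161, 152, 166 and 163 CPM in control replicates 1 to 4. The groups did not overlap, and replicate 4 was the highest knockdown library. Its log2 change was 0.13 (SE 0.04, adjusted p = 0.0127), and the call was lost without knockdown replicate 4 or control replicate 2, with the length correction, on FPKM and under library total scaling. The gene lies at chr11:4701968-4704344 and was the most abundant of complex III per length, at 389 ± 16.5 FPKM in the knockdown and 370 ± 10.4 FPKM in controls.

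The core proteins of complex III, Uqcrc1 and Uqcrc2, were not called and differed in sign. Uqcrc1 averaged 185 ± 16.2 CPM in the knockdown and 194 ± 7.75 CPM in controls (SD, n = 4 each), with knockdown replicate 4 lowest at 161 CPM. Uqcrc2 averaged 150 ± 5.55 CPM in the knockdown and 141 ± 2.12 CPM in controls without overlap (log2 change 0.09, adjusted p = 0.0985), with counts that were not whole. Uqcrfs1, the Rieske iron-sulfur protein that accepts electrons from ubiquinol, averaged 128 ± 4.32 CPM in the knockdown and 131 ± 3.47 CPM in controls.

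Complex IV, cytochrome c oxidase, reduces oxygen to water. Of 11 tested genes 2 rose, Cox6c and Cox7a2, and 9 of 11 log2 changes were positive, with a median of 0.07 that stayed above 0 under library total scaling and on FPKM (0.01 in both) and with the length correction (0.03). Called complex IV genes were 1 higher and 1 lower under library total scaling and on FPKM, and 2 higher and 1 lower with the length correction. Cox6c, a small membrane subunit, measured 373, 375, 370 and 373 CPM in knockdown replicates 1 to 4, against 324, 329, 339 and 352 CPM in control replicates 1 to 4. The knockdown libraries lay close together and all above the controls, which were spread more widely. The log2 change was 0.15 (SE 0.03, adjusted p = 0.000247), the smallest adjusted p of the 83 genes. Over the 19 alternatives it stayed between 0.10 and 0.17. Cox6c lies at chr15:35931976-35938246.

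Cox7a2, the broadly expressed form of subunit VIIa, measured 150, 140, 149 and 162 CPM in knockdown replicates 1 to 4 and 130, 129, 133 and 148 CPM in control replicates 1 to 4. Control replicate 4 lay above knockdown replicate 2, so the groups overlapped. Its log2 change was 0.16 (SE 0.04, adjusted p = 0.00926), and the call was lost without control replicate 1, under library total scaling and on FPKM. The gene spans chr9:79755241-79771422. The muscle form Cox7a1 was too low to be tested, with 2, 0, 5 and 1 counts in knockdown replicates 1 to 4 and 1, 1, 3 and 2 counts in control replicates 1 to 4, and Cox7a2 made up 99.8% of the summed FPKM of the pair in either group.

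Other paralogue pairs of complex IV were as one-sided. Cox6a1, the broadly expressed form of subunit VIa, had the highest level per length of the complex, at 1472 ± 122 FPKM in the knockdown and 1451 ± 74.6 FPKM in controls, and its muscle counterpart Cox6a2 had 4.58 ± 0.670 FPKM in the knockdown and 4.37 ± 1.04 FPKM in controls. Cox6b1 averaged 180 ± 3.40 CPM in the knockdown and 169 ± 9.15 CPM in controls without overlap (log2 change 0.09, adjusted p = 0.0724), while its testis counterpart Cox6b2 had at most 5 counts in any library. Cox8a averaged 712 ± 32.0 CPM in the knockdown and 691 ± 19.0 CPM in controls, and Cox8b, Cox8c and Cox7b2 had 0 counts in all 8 libraries. Ndufa4, named for complex I but known as a complex IV subunit, averaged 289 ± 12.4 CPM in the knockdown and 290 ± 9.55 CPM in controls, and its paralogue Ndufa4l2, which in other cells is induced by low oxygen, had 3 to 5 counts in knockdown libraries and 2 to 10 in controls. A count of 0 allowed up to 0.181 to 0.257 CPM per library, counting error only.

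Cox5a and Cox5b surround the catalytic core made by the mitochondrial genome. Cox5a measured 117, 116, 114 and 114 CPM in knockdown replicates 1 to 4 and 110, 107, 110 and 113 CPM in control replicates 1 to 4, just separated and not called (log2 change 0.07, adjusted p = 0.246). Cox5b averaged 214 ± 6.51 CPM in the knockdown and 212 ± 3.88 CPM in controls (SD, n = 4 each). Neither the 95% interval of Cox5a, -0.01 to 0.15, nor that of Cox5b, -0.06 to 0.08, reached 0.25.

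**Figure D4:**
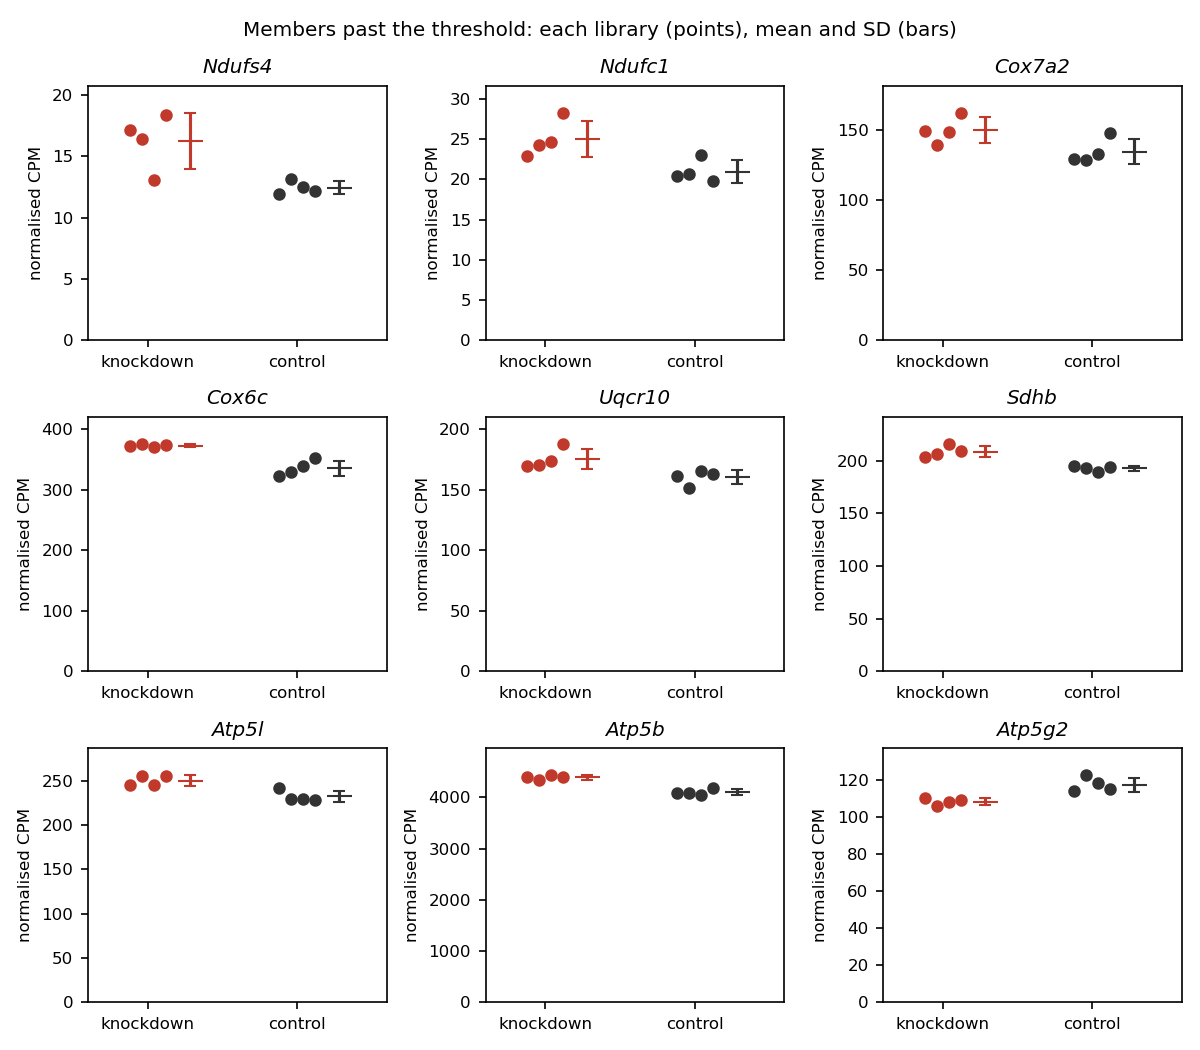
Normalised CPM of the 9 called genes in each of the 4 knockdown libraries (red points) and 4 control libraries (black points), with mean and SD beside them, on axes that start at 0. The groups do not overlap for Cox6c, Uqcr10, Sdhb, Atp5l, Atp5b and Atp5g2, and they overlap for Ndufs4, Ndufc1 and Cox7a2.

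The ATP synthase joins a soluble F1 head, where ATP is made, to a membrane part whose ring of c subunits turns as protons pass. Of its 15 tested genes 2 rose, Atp5b and Atp5l, and 1, Atp5g2, fell. The median log2 change was 0.05, and it was 0.01 with the length correction and -0.0040 under library total scaling. Under library total scaling and on FPKM 0 complex V genes were called higher and 2 lower, and with the length correction 1 higher and 1 lower. Atp5b, the catalytic beta subunit, measured 4393, 4330, 4429 and 4404 CPM in knockdown replicates 1 to 4 and 4086, 4092, 4048 and 4190 CPM in control replicates 1 to 4. Every knockdown library was above every control, by a log2 change of 0.10 (SE 0.02, adjusted p = 0.0028). Atp5b (chr10:128083307-128090388) was also the most abundant of the 83 genes, and it kept its call whichever library was left out but lost it under library total scaling and on FPKM.

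The other F1 subunits gave no call. Atp5a1, the alpha subunit that alternates with beta in the head, averaged 1206 ± 38.8 CPM in the knockdown and 1208 ± 10.4 CPM in controls (log2 change -0.0020, 95% interval -0.06 to 0.05). Atp5c1, the gamma subunit of the central stalk, averaged 163 ± 4.69 CPM in the knockdown and 157 ± 3.24 CPM in controls. The other stalk subunits, Atp5d (delta) and Atp5e (epsilon), had log2 changes of -0.03 and 0.05. The alpha and beta subunits stand in equal number in the enzyme, and their transcripts differed in level, with 486 ± 17.6 FPKM for Atp5a1 and 2289 ± 15.3 FPKM for Atp5b in the knockdown, and 506 ± 4.26 FPKM for Atp5a1 and 2225 ± 34.3 FPKM for Atp5b in controls.

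In the peripheral stalk, which holds the head still, none of the 4 genes was called, although Atp5f1, Atp5h and Atp5o had groups that did not overlap. Atp5o, the oligomycin sensitivity conferring protein, measured 321, 324, 330 and 326 CPM in knockdown replicates 1 to 4 and 307, 299, 314 and 315 CPM in control replicates 1 to 4 (log2 change 0.08, adjusted p = 0.0662). Of the small membrane subunits, Atp5l (subunit g) rose, with 245, 255, 245 and 256 CPM in knockdown replicates 1 to 4 and 242, 229, 230 and 229 CPM in control replicates 1 to 4. Control replicate 1 came close to the knockdown libraries without reaching them. The log2 change was 0.11 (SE 0.03, adjusted p = 0.0152), and the call was lost under library total scaling, on FPKM and with the length correction. Atp5l lies at chr9:44913248-44920742. Atp5k (subunit e), the lowest of complex V per length, had 75.5 ± 10.3 FPKM in the knockdown and 74.6 ± 10.3 FPKM in controls. Summed over the 15 genes, complex V took 7938 ± 57.8 CPM in the knockdown and 7586 ± 64.9 CPM in controls (SD, n = 4 each), a sum in which Atp5b alone has the larger part. These sums rest on TMM factors, which were 0.974 to 0.987 in knockdown libraries and 1.01 to 1.03 in controls. Sums were not taken under library total scaling, where the median log2 change of complex V was -0.0040.

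The c subunit ring is built from 3 genes, Atp5g1, Atp5g2 and Atp5g3, whose precursors differ in their import sequences but yield the same mature protein. Because 1 of these 3 genes was called and the others were not, the 150 bases upstream of their RefSeq transcription starts (GRCm38.p6, minus strand, written 5′ to 3′) are shown for comparison. Capitals mark a match to the binding motif of NRF1, a transcription factor of many respiratory genes, searched as GCGCA and GCGC with any base between them.

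Atp5g1, chr11:96075632-96075781: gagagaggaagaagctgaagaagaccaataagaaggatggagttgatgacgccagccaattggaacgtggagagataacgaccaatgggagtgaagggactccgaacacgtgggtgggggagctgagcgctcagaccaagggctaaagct
Atp5g2, chr15:102671048-102671197: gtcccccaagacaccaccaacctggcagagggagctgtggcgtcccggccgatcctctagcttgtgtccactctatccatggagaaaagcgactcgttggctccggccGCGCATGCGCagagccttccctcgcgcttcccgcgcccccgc
Atp5g3, chr2:73911327-73911476: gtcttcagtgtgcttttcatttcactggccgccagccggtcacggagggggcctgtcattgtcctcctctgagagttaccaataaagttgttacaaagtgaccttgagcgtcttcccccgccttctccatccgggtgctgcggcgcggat

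The Atp5g2 stretch holds the match GCGCATGCGC at 42 to 33 bases before the start. In Atp5g3 the match GCGCTTGCGC lies 12 to 21 bases after the start, outside the stretch shown, and no match was found for Atp5g1 in the 300 base window. For Atp5g1 and Atp5g3 the start used here is not the outermost start of the gene. A match describes letters and does not show binding.

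Atp5g2 measured 110, 106, 108 and 109 CPM in knockdown replicates 1 to 4, against 114, 123, 119 and 115 CPM in control replicates 1 to 4. Every knockdown library was below every control, and the log2 change was -0.12 (SE 0.04, adjusted p = 0.0322). The call held under the other scalings and was lost without knockdown replicate 2 or 3 or control replicate 2 or 3. Atp5g1 and Atp5g3 were not called, with log2 changes of 0.05 (95% interval -0.03 to 0.13) and 0.04 (-0.04 to 0.12). Of the summed FPKM of the 3 genes, Atp5g2 held 30.6%, 29.9%, 30.4% and 31.6% in knockdown replicates 1 to 4 and 31.8%, 34.8%, 33.3% and 32.3% in control replicates 1 to 4. The groups of shares did not overlap, by a difference of -2.42 percentage points. The exact two-sided permutation test gave p = 0.0286, the smallest that 4 against 4 allows, and 0.0857 after Benjamini-Hochberg adjustment over the 3 genes. That is the smallest adjusted value that 1 separated gene of 3 can reach here, so the adjusted test could not pass 0.05. The shares come from the same libraries as the Atp5g2 call and add no separate evidence for it. Atp5g3 held 43.1 ± 1.76% in the knockdown and 41.8 ± 0.766% in controls (exact permutation p = 0.229), and Atp5g1 held 26.3 ± 1.08% in the knockdown and 25.2 ± 0.808% in controls (exact permutation p = 0.143).

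The 2 genes that share only the Atp5 name were not called. Atp5sl, which in human cells is linked to complex I assembly, averaged 31.6 ± 1.08 FPKM in the knockdown and 34.3 ± 1.62 FPKM in controls, and Atp5s, the coupling factor B gene, 0.770 ± 0.166 FPKM in the knockdown and 0.850 ± 0.197 FPKM in controls (SD, n = 4 each).

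**Figure D5:**
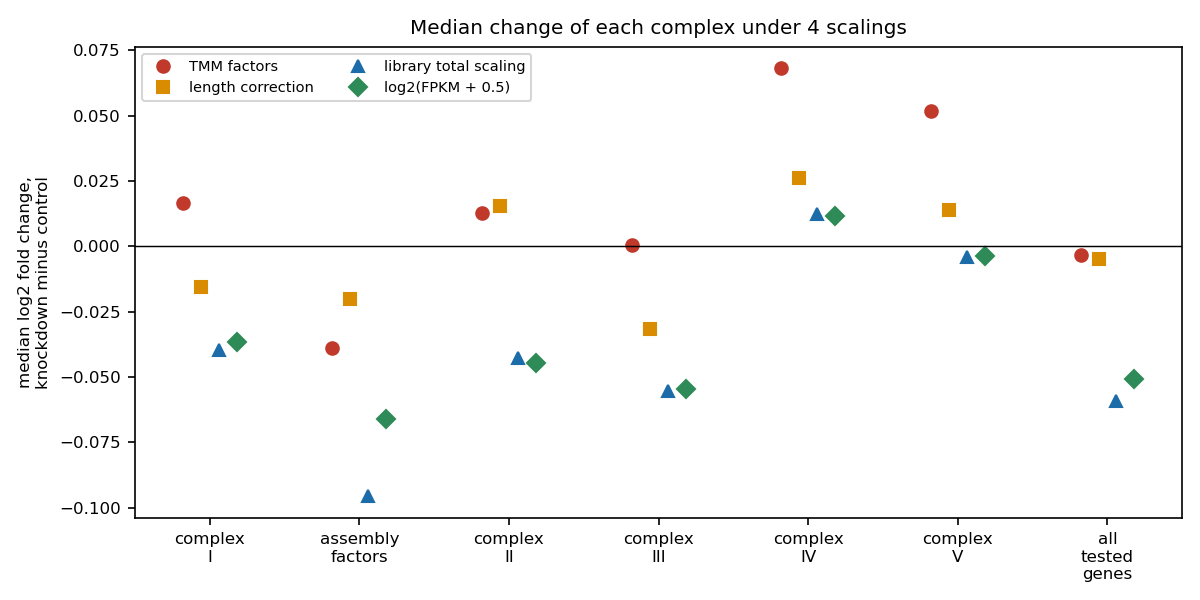
Median log2 fold change, knockdown minus control (y axis), of each complex, of the assembly factors and of all tested genes under TMM factors, a length correction, library total scaling and limma on log2(FPKM + 0.5). Medians of complexes I, II, III and V change sign between scalings, and that of complex IV stays above 0 in all 4.

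Promoter windows (250 bases before to 50 after the RefSeq start) were at hand for 75 of the 89 genes. Motifs were searched on both strands with the NRF1 letters given above, CCGGAAG for ETS factors such as GABP and AAGATGG for YY1, where the last letters of the ETS motif can overlap the first of the YY1 motif. Of the 75 genes 25.3% held the NRF1 motif, 22.7% the ETS motif and 16.0% the YY1 motif. Over all 27025 genes with a window the shares were 5.19%, 9.93% and 7.28%. Those 27025 genes were not limited to genes tested here, and a comparison with tested genes alone was not made. At least 1 of the 3 motifs was found for 42 of the 75 genes (56.0%), against 20.0% of all genes with a window. Among the called genes with a window, 5 of 8 held one, NRF1 in Atp5g2, ETS in Sdhb and Atp5l, and YY1 in Ndufs4 and Ndufc1. Uqcr10, Cox7a2 and Atp5b held none of the 3 motifs. Whether the factors behind these motifs bear on the calls was not tested.

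Other genes of the pathway were read from lists of subunits, assembly factors, regulators and partner pathways. Their counts stand against 11.1% of all tested genes called higher and 9.15% called lower. Of 6 tested subunits outside the symbol families 1 rose, Cycs, which encodes cytochrome c, with 1406, 1331, 1361 and 1418 CPM in knockdown replicates 1 to 4 and 1363, 1255, 1304 and 1295 CPM in control replicates 1 to 4 (log2 change 0.08, SE 0.03, adjusted p = 0.0351). That call was lost without knockdown replicate 1 or 4 or control replicate 2, 3 or 4, with DESeq2, on FPKM and under library total scaling. Cox4i1, the nuclear subunit IV of complex IV, had a log2 change of 0.06 and was not called. Of 35 other assembly factors 2 rose and 2 fell, with a list median of -0.05. Foxred1, a complex I assembly factor, rose by 0.29 (SE 0.06, adjusted p = 0.000255) on the log2 scale without overlap of the groups. Cox17, the copper chaperone of complex IV, rose by 0.21 (SE 0.06, adjusted p = 0.0064). The complex II factor Sdhaf1 fell by 0.25 and the complex IV factor Coa5 fell by 0.12. Foxred1 and Sdhaf1 kept their calls under all 19 alternatives, Cox17 lost its call under library total scaling and with the length correction, and Coa5 lost its call in 6 of 8 fits that left out a library. Without knockdown replicate 4 the list had 2 higher and 1 lower (all tested genes: 1033 and 802). Under library total scaling it had 1 higher and 4 lower (all tested genes: 766 and 1951).

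Among 15 tested regulators of respiratory genes and mitochondrial DNA, 1 rose and 2 fell, with a median of -0.07. Over all tested genes 11.1% were called higher and 9.15% lower. Polrmt, the RNA polymerase of mitochondria, measured 47.7, 50.7, 52.5 and 43.9 CPM in knockdown replicates 1 to 4 and 58.5, 62.7, 56.9 and 62.3 CPM in control replicates 1 to 4. Esrra, a nuclear receptor that drives respiratory genes, measured 29.2, 25.2, 29.1 and 27.1 CPM in knockdown replicates 1 to 4 and 31.7, 36.6, 34.3 and 34.7 CPM in control replicates 1 to 4. Both fell without overlap, Polrmt by 0.30 (SE 0.06, adjusted p = 8.41e-05) and Esrra by 0.31 (SE 0.07, adjusted p = 0.000779) on the log2 scale. Polg, the mitochondrial DNA polymerase, rose by 0.13 (adjusted p = 0.0393), with counts that were not whole, and its call was lost in 6 of 8 fits that left out a library. The coactivators Ppargc1a and Ppargc1b had too few counts to be tested, at most 2 and 4 in any library. Transcripts for NRF1, GABP and YY1, whose motifs were searched above, were not called. Log2 changes were -0.07 for Nrf1, -0.01 for Gabpa, -0.17 for Gabpb1, -0.09 for Gabpb2 and -0.03 for Yy1. Of these, Gabpb1 was called lower under library total scaling. The list kept 1 higher and 2 lower without knockdown replicate 4 (all tested genes: 1033 and 802). Under library total scaling it had 0 higher and 6 lower, Esrra and Polrmt among them (all tested genes: 766 and 1951). Esrra and Polrmt kept their calls under all 19 alternatives.

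Tricarboxylic acid cycle enzymes, which feed the chain with NADH and succinate, had 5 of 13 genes called higher and none lower. Over all tested genes 11.1% were called higher and 9.15% lower. The list had a median log2 change of 0.05. Those rising included Cs (0.10), Dld (0.12), Sucla2 (0.19) and Suclg2 (0.54), and in each of these the knockdown libraries were all above the controls. Suclg2, the GTP-forming subunit of succinyl-CoA ligase, was low, at 5.99, 5.81, 6.17 and 7.67 CPM in knockdown replicates 1 to 4 and 4.06, 3.86, 4.54 and 5.30 CPM in control replicates 1 to 4 (adjusted p = 0.00829). Without knockdown replicate 4 the list had 4 genes higher and 0 lower (all tested genes: 1033 and 802). Without control replicate 3 it had 2 and 0 (all tested genes: 1134 and 926). Under library total scaling it had 1 higher and 1 lower (all tested genes: 766 and 1951), and on FPKM 0 of either (all tested genes: 592 and 1481). Of 11 mitochondrial proteostasis genes 2 rose, the chaperones Hspd1 and Hspa9, each by 0.09 on the log2 scale, and neither was called under library total scaling, on FPKM, or without knockdown replicate 2 or control replicate 1. Hspd1 was also lost without knockdown replicate 1 or control replicate 3.

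Some markers of cell types differed between the groups as well, and their part in the results above was not tested. Over all tested genes 11.1% were called higher and 9.15% lower. The 12 kidney tubule markers, tested or not, summed to 135 to 142 CPM in knockdown libraries and 159.8 to 173 CPM in controls, a sum dominated by the water channel Aqp1, which fell by 0.29 on the log2 scale and was 1 of 3 tested. Of the 5 fibroblast and pericyte markers the 3 tested, Pdgfrb, Dcn and Col1a1, rose (2 of 3 without knockdown replicate 4). The list summed to 327 to 378 CPM in knockdown libraries and 280.2 to 305 CPM in controls, a sum dominated by Col1a1. The Dcn call was lost without knockdown replicate 4 or control replicate 2. That of Pdgfrb was lost on FPKM and without knockdown replicate 3 or control replicate 3. Of 4 epithelial markers tested none was called, and the 5 listed summed to 14.2 to 16.9 CPM in knockdown libraries and 15.7 to 17.8 CPM in controls. The muscle markers, relevant to the muscle forms of complex IV, had 1 of 4 tested, Tnnt2, which was not called, and all 4 summed to 49.5 to 58.0 CPM in knockdown libraries and 46.9 to 52.0 CPM in controls, nearly all of it Tnnt2. Flt1 rose among endothelial markers (1 of 4 tested; sums over all 4 of 11.9 to 13.7 CPM in knockdown libraries and 7.40 to 9.58 CPM in controls), and Cd14 fell among leukocyte markers (2 of 5 tested; sums over all 5 of 111 to 122 CPM in knockdown libraries and 130 to 138 CPM in controls), with the macrophage marker Adgre1 at 0 counts throughout.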

How the data were processed

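Poly(A)-selected RNA was sequenced in 4 knockdown and 4 control libraries, per the labels' protocols. The authors deposited FPKM and expected counts for each gene, per the file headers, and 6.52% of the count values were not whole. RSEM, edgeR, DESeq2, StringTie 1.3.1, HISAT2 2.4, Bowtie2 2.2.8 and fastp 0.18.0 appear without roles, with build GRCm38.p6, per the submitters' processing notes. Strand use and annotation release in counting are not given in the sources at hand, and reads of antisense or overlapping genes cannot be separated.

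Rounded counts entered edgeR 4.0.16 under R 4.3.3 (TMM factors, default expression filter, robust quasi-likelihood F-test on group, two-sided). P-values were Benjamini-Hochberg adjusted over 11576 genes, with a threshold of 0.05. Standard errors came from the fold change and F statistic. Replicates of a group differed by more than sampling noise (chi-square per degree of freedom 1.94 to 3.94). A count of 0 was read as allowing up to 3 counts, for counting error alone. The procedure was tested on simulated data.

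Members, gene lists, markers and the rule for named genes were chosen with earlier results of these data known. The rule names up to 3 genes per class with the smallest p, core subunits, isoform sets, all Ndufaf genes and the extremes of FPKM per class. Other members named, such as Atp5o and Ndufv3, were chosen after their values were seen, and some genes that meet the rule are not reported here. Alternatives comprised DESeq2 1.42.0 and its size factors, library totals as scaling, limma 3.58.1 (voom, and log2(FPKM + 0.5)), other filters, a length correction, a replicate term and each library left out. Effective length was taken from the ratio of counts to FPKM. Promoter sequences came from a RefSeq table and coordinates from a RefSeq gene table, both of GRCm38.p6.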

Additional observations from a re-analysis of the deposited data

Results flagged for a closer look

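Single libraries stood far from the other 3 of their group for 6 genes, by Dixon's test at the 95% level. Chance gives about 1 such library in 20 groups, and 110 groups were checked. Ndufb4 was low in knockdown replicate 1 (48.5 CPM, against 53.5 to 54.0 CPM in the other knockdown libraries). Among control libraries, Ndufs3 was high in replicate 3 (136 CPM, against 127 to 128 CPM), as was Ndufs7 (47.7 CPM, against 42.7 to 43.5 CPM). Ndufa4 was low in control replicate 2 (276 CPM, against 294 to 296 CPM), as was Atp5g3 (159 CPM, against 166 to 168 CPM). Atp5l was high in control replicate 1 (242 CPM, against 229 to 230 CPM), the library closest to the knockdown. Knockdown replicate 1 had a total of 14280962 expected counts, and the other knockdown libraries had 12746051 to 12902835.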

How the results depend on the processing

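Among the 83 genes, 8 higher and 1 lower were also called with DESeq2's size factors, DESeq2's own test, voom, no filter, a mean of at least 5 CPM and whole counts only. Scaling by library total gave 2 higher and 6 lower, with 766 higher and 1951 lower among all tested genes. Limma on log2 FPKM gave 3 higher and 6 lower, with 592 higher and 1481 lower among all tested genes. Under both, the genes called lower were Atp5d, Atp5g2, Cox7c, Ndufb7, Ndufs3 and Ndufv3. The length correction gave 5 higher and 5 lower. Leaving out 1 library at a time gave 6 to 10 higher and 0 to 1 lower among the 83 genes. All tested genes then gave 1033 to 1227 higher and 802 to 997 lower. Whether the replicate numbers pair the samples could not be told. Same-numbered deviations correlated only at -0.04 to 0.08. Knockdown replicates 1, 2 and 4 nevertheless correlated best with their own number, and 3 with control replicate 4. With a replicate block 11 of the 83 genes were called higher and 1 lower, against 1425 and 1235 among all tested genes. With the block and the length correction 6 of the 83 were higher and 5 lower, against 1432 and 1262 among all tested genes. The cause of these shifts was not tested beyond the scaling itself. A tally over single genes covered only the 45 tested genes picked by the rule for named genes, not all 83. Of their 845 values under the alternatives, 806 kept their side of the threshold, 28 lost the call and 11 gained one. Values not called in either fit count among the 806 whatever their direction, and 0 changed direction while called. Calls gained by other members, such as Atp5d, Cox7c, Ndufb7 and Ndufv3, are not in that tally, so it understates the gains among the 83. As for depth, the 95% intervals of 69 of 83 genes stayed within 0.25 of 0 on the log2 scale, and those of Cox6a2, Atp5k, Atp5s, 6 complex I subunits and 5 of 7 assembly factors reached beyond it.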
